A study of Mus musculus with 9 samples.

Results

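Mitochondrial fatty acid oxidation was followed in epididymal adipose tissue of obese mice during weight loss through 9 genes, *Cpt1a*, *Cpt1b*, *Cpt2*, *Acadm*, *Acadl*, *Acadvl*, *Hadha*, *Acaa2* and *Pdk4*. The genes were taken from the table of counts by their symbols, each symbol had 1 row, and together they are 9 of the 56748 genes in it. All 9 are protein-coding genes, and all 9 passed the filter of 0.5 CPM (counts scaled to the library total) in at least 1 library that left 18510 genes for testing. *Cpt1b* reached that level in 3 of the 9 libraries and the other 8 genes in all 9. RNA was sequenced from epididymal fat of male wild-type (WT) C57BL/6J mice that began a high-fat diet (HFD) at 8 weeks of age. The Pre group was sampled after 8 weeks of HFD. The WL1 group received the same 8 weeks of HFD and then standard diet (SD) for 1 week, and the WL2 group SD for 2 weeks. Every group had therefore been fed HFD for 8 weeks, no lean group was among these libraries, and WL1 and WL2 mice were 1 and 2 weeks older than Pre mice at sampling. Each group had 3 libraries. The labels do not state that each library came from 1 mouse, so p-values measure the spread between these samples, which may be technical.

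As background, long-chain fatty acids released from triglyceride enter mitochondria as carnitine esters and are then shortened in repeated rounds of dehydrogenation, hydration, a further dehydrogenation and thiolysis. Malonyl-CoA, the product of acetyl-CoA carboxylase, blocks the entry step, and nuclear receptors of the PPAR family raise transcription of many genes of the pathway during fasting. *Pdk4* encodes a kinase that inactivates pyruvate dehydrogenase and so spares glucose when fatty acids are burned. White fat mainly stores and releases fatty acids and oxidises less of them than brown fat, muscle or liver.

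*Pdk4* was the only one of the 9 genes called higher, and it was called in both WL1 and WL2 against Pre. *Cpt2* was called lower at WL1, and *Cpt1a*, which stood highest at WL1, was called lower at WL2 than at WL1. The remaining 6 genes were called in no comparison by the quasi-likelihood test of edgeR after adjustment by Benjamini-Hochberg. The start regions of these 3 genes are printed first, with that of *Hadha*, which lies beside the gene for its partner subunit *Hadhb*. Each covers 250 bases before the transcription start and 50 after it, 5′ to 3′ on the strand of the gene, from RefSeq on GRCm38.p6. Capitals mark motifs on either strand, which are the nuclear receptor half-site AGGTCA, the element called a GC box, whose letters read GGGCGG, and the element called a CCAAT box.
Pdk4, chr6:5496229-5496528, minus strand: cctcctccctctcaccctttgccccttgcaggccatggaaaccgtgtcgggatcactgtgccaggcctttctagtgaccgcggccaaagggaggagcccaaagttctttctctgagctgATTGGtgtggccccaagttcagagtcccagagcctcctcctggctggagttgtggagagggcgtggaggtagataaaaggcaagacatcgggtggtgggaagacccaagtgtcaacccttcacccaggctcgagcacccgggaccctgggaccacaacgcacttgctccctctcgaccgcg
Cpt2, chr4:107923540-107923839, minus strand: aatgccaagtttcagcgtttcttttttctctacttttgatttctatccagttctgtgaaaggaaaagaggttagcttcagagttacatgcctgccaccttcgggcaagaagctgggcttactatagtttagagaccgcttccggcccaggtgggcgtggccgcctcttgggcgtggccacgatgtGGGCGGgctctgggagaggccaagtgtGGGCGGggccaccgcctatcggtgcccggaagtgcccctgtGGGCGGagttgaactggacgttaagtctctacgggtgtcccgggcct
Cpt1a, chr19:3323051-3323350, plus strand: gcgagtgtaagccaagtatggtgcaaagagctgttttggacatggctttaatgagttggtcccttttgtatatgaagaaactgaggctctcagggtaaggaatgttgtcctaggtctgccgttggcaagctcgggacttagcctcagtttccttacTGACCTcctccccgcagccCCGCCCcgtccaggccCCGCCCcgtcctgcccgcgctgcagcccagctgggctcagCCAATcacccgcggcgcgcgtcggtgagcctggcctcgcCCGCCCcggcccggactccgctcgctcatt
Hadha, chr5:30154931-30155230, minus strand: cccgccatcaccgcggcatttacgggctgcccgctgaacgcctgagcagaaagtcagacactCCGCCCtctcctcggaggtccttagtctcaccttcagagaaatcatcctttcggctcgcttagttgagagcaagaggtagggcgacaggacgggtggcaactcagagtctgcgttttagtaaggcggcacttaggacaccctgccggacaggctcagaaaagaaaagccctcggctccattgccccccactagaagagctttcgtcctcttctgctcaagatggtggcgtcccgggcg
RefSeq start regions were matched for 7 of the 9 genes, all but *Cpt1b* and *Acaa2*.

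The *Pdk4* region held a CCAAT box 131 bases before the start, read on the opposite strand, and none of the other motifs searched. *Cpt2* held 3 GC boxes, 2 of them before the start, at 65 and 38 bases. *Cpt1a* held 3 GC boxes, a CCAAT box 19 bases before the start and an AGGTCA half-site 94 bases before it. *Hadha* held 1 GC box, 188 bases before its start. That start lies 273 bases from the RefSeq start of *Hadhb*, which is transcribed in the other direction, and the regions of the partner genes overlap by 228 bases. Among the 7 regions, AGGTCA occurred in 3 (*Acadm*, *Acadvl* and *Cpt1a*), against 16.3% of 32851 RefSeq start regions of the same length. GGGCGG occurred in 4 (*Acadl*, *Cpt1a*, *Cpt2* and *Hadha*), against 35.7%. CCAAT occurred in 2, against 37.4%. AGGTCANAGGTCA, the direct repeat to which PPAR and RXR dimers bind, contains AGGTCA and occurred in 0 of the 7, against 0.0396% of all regions. At so low a share, 0 of 7 cannot tell these genes from others, and only the exact repeat was searched. The E box CACGTG (7.15% of all regions) and the forkhead motif TAAACA (13.4%) were also in 0 of the 7. These matches describe letters in the windows.

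Levels were compared between genes within a phase by FPKM, which divides reads by gene length. That length is of all annotated exons, and the length of the transcripts present is not known here. *Hadha* (256 CPM) and *Acadl* (263 CPM) had similar mean CPM at Pre, with lengths of 8730 and 2005 bases. The order of genes therefore depends on these lengths. At Pre, *Acadl* had the highest mean (123 FPKM), followed by *Acaa2* (102) and *Acadm* (98.9). The ranges of these 3 genes overlapped from neighbour to neighbour. *Cpt2* followed at 43.3 FPKM, separate from both neighbours. *Acadvl* (29.9), *Hadha* (27.5), *Pdk4* (21.5) and *Cpt1a* (18.8) came next, each range overlapping the next. *Cpt1b*, the muscle form of the entry enzyme, was last at 0.112 FPKM. *Acadl*, *Acaa2* and *Acadm* kept the first 3 places at WL1 and at WL2. *Pdk4* stood in place 7 at Pre and in place 4 at WL1 (68.4 FPKM) and WL2 (55.2 FPKM), where its range overlapped neither neighbour.

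**Figure D1:**
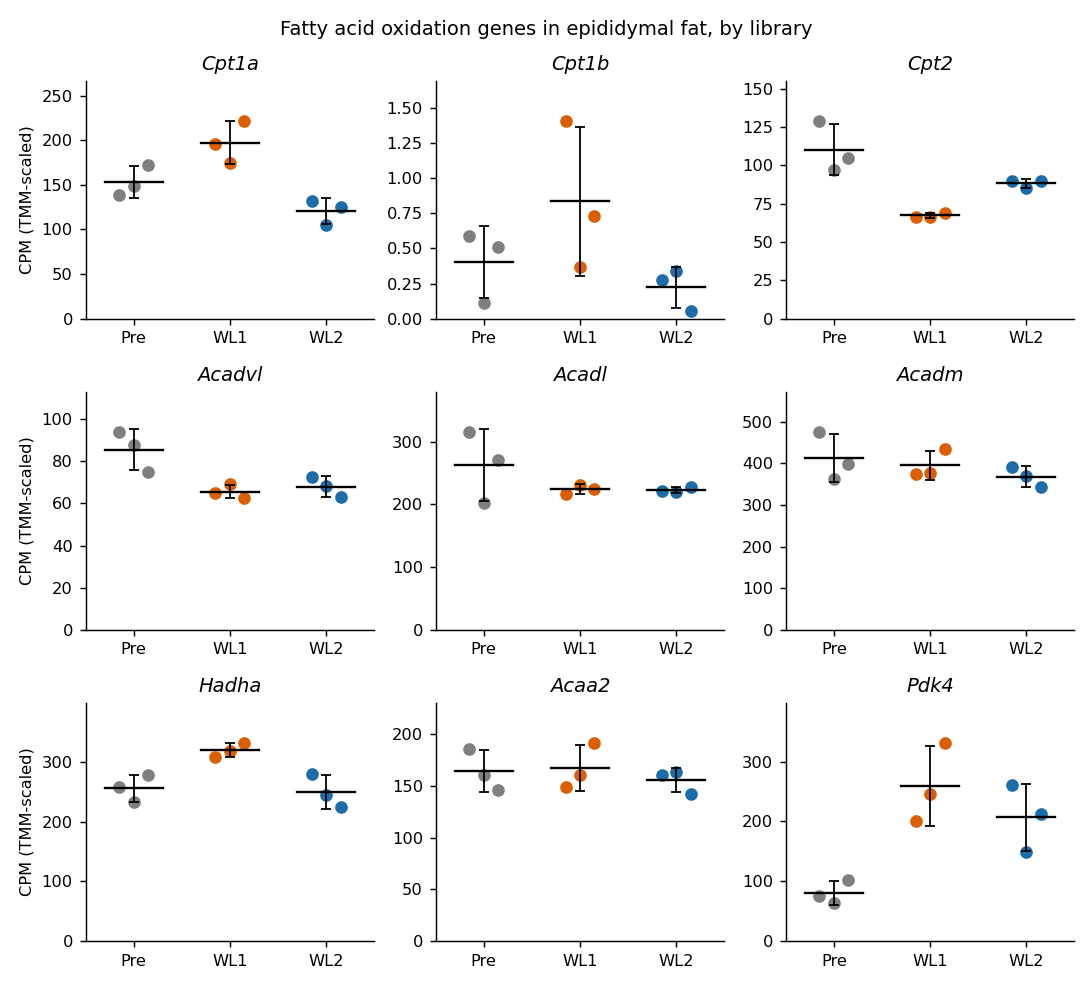
Level of each of the 9 genes in TMM-scaled CPM (vertical axes from 0, own scale per gene) in each of 3 libraries of Pre, WL1 and WL2. Points are libraries, wide bars are means and error bars are 1 SD. *Pdk4* in the 3 WL1 and 3 WL2 libraries lies above all 3 Pre libraries, *Cpt2* at WL1 lies below the other phases and *Cpt1a* at WL2 lies below WL1.

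The entry of fatty acids into mitochondria needs 2 carnitine palmitoyltransferases. CPT1 in the outer membrane forms the carnitine ester, and CPT2 in the inner membrane turns it back into the acyl-CoA. The liver form of CPT1, *Cpt1a*, was measured at 138, 149 and 172 CPM in the Pre libraries, at 196, 175 and 222 CPM at WL1 and at 132, 104 and 125 CPM at WL2. The 3 phases did not overlap with each other, with WL1 highest and WL2 lowest. Mean levels were 153 ± 17.6 CPM (Pre), 197 ± 23.7 CPM (WL1) and 120 ± 14.4 CPM (WL2; SD, n = 3). WL2 was 0.61 of WL1, and the log2 fold change was −0.71 (SE 0.14, adjusted p = 0.0250, edgeR). Against Pre, the log2 fold change of *Cpt1a* was 0.37 at WL1 (adjusted p = 0.133, edgeR) and −0.35 at WL2 (adjusted p = 0.138). Neither passed the threshold, although both 95% intervals (0.064 to 0.67 and −0.65 to −0.045) left out 0. Its call at WL2 against WL1 was lost without WL1 replicate 1, WL1 replicate 3, WL2 replicate 2 or WL2 replicate 3, with log2 fold changes between −0.79 and −0.60 over the fits that left out 1 library.

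*Cpt2* moved differently. Its levels were 129, 96.8 and 105 CPM at Pre, 66.6, 66.5 and 69.0 CPM at WL1 and 90.1, 85.2 and 89.5 CPM at WL2. The phases did not overlap, and WL1 was lowest. The mean was 110 ± 16.9 CPM at Pre and 67.4 ± 1.40 at WL1 (SD, n = 3), so the log2 fold change was −0.71 (SE 0.12, adjusted p = 0.00696, edgeR). At WL2 the mean was 88.3 ± 2.72 CPM, between the other phases. The log2 fold change at WL2 was −0.32 against Pre (adjusted p = 0.109, edgeR) and 0.39 against WL1 (adjusted p = 0.0882). The fall at WL1 kept its call in every fit that left out 1 library (−0.80 to −0.58). Without Pre replicate 2, *Cpt2* was also called lower at WL2 than at Pre (log2 fold changes over these fits between −0.41 and −0.19). At WL1 the *Cpt1a* mean thus stood above its Pre mean and that of *Cpt2* below it.

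*Cpt1b* was close to the detection limit. It had 10, 2 and 11 reads in the Pre libraries, 26, 8 and 13 at WL1 and 5, 6 and 1 at WL2, in libraries of 16434450 to 22729072 counts. Its log2 fold changes were 1.03 at WL1 (95% interval −0.62 to 2.68) and −0.82 at WL2 (−2.65 to 1.00) against Pre, and none passed the test (lowest adjusted p = 0.209, edgeR). In GENCODE M21, 81.4% of the exonic bases of *Cpt1b* also belong to *Gm44502* on the same strand, which had 0 reads in every library, and how reads in both were counted is not stated, so the level of *Cpt1b* is uncertain. The log2 ratio of *Cpt1b* to *Cpt1a* FPKM was −7.71 ± 1.33 for Pre, −6.90 ± 0.90 for WL1 and −8.24 ± 1.47 for WL2 (SD, n = 3). It did not differ between phases beyond the spread of the libraries (exact permutation test over 1680 assignments, p = 0.429, adjusted over 3 ratios 0.429).

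The first step of each round is carried out by acyl-CoA dehydrogenases that differ in the chain length they accept, and none of the 3 measured here was called in any comparison by edgeR with all libraries and the settings of the main test. *Acadvl*, for very long chains, was measured at 94.0, 87.6 and 75.0 CPM at Pre, 65.2, 69.0 and 62.8 CPM at WL1 and 72.6, 68.5 and 62.9 CPM at WL2. All 6 weight-loss libraries lay below the 3 Pre libraries. The log2 fold change was −0.38 at WL1 (SE 0.11, adjusted p = 0.0672, edgeR) and −0.33 at WL2 (SE 0.11, adjusted p = 0.0916). *Acadvl* was called lower at WL1 in 4 of the 10 other settings, namely DESeq2, the filter on 3 libraries, upper quartile factors and limma on log2(FPKM + 1), and at WL2 by DESeq2. It was called lower in both when Pre replicate 3 was left out (−0.47 and −0.42). Of its exonic bases in GENCODE M21, 42.9% are shared with *Dvl2* on the opposite strand, which had 319 to 487 reads per library, and without a stated strand setting these reads cannot be told apart.

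*Acadl*, for long chains, showed 316, 202 and 271 CPM at Pre, 216, 231 and 225 CPM at WL1 and 221, 220 and 228 CPM at WL2. The Pre libraries spread over the whole range of the others, with an SD of 57.2 CPM, against 7.73 CPM at WL1 and 4.20 CPM at WL2. Its log2 fold change was −0.23 at WL1 (95% interval −0.55 to 0.093) and −0.24 at WL2 (−0.56 to 0.085). *Acadl* was called lower at WL2 when Pre replicate 2, the lowest Pre library, was left out (−0.40). *Acadm*, for medium chains, showed 476, 362 and 399 CPM at Pre, 373, 377 and 434 CPM at WL1 and 392, 370 and 343 CPM at WL2. The groups overlapped, and the log2 fold change was −0.062 at WL1 (−0.34 to 0.22) and −0.16 at WL2 (−0.44 to 0.12). At WL1 its sign turned without scaling factors between libraries (0.037) and without Pre replicate 1 (0.054).

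The later steps are carried out by the mitochondrial trifunctional protein, whose alpha subunit is *Hadha*, and by the thiolase *Acaa2*. *Hadha* showed 259, 232 and 277 CPM at Pre, 308, 318 and 332 CPM at WL1 and 279, 245 and 224 CPM at WL2. The 3 WL1 libraries stood above all others, while Pre and WL2 overlapped. The log2 fold change was 0.32 at WL1 against Pre (SE 0.12, adjusted p = 0.127, edgeR) and −0.36 at WL2 against WL1 (SE 0.12, adjusted p = 0.108). At WL2 against Pre it was −0.039 (95% interval −0.30 to 0.22), with the sign turned without scaling factors (0.11), without Pre replicate 3 (0.022) and without WL2 replicate 3 (0.034). Without scaling factors *Hadha* was called higher at WL1.

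The beta subunit *Hadhb*, whose start lies beside that of *Hadha*, was set beside it after its values were seen. The ratio of *Hadha* to *Hadhb* counts was 0.987, 0.957 and 1.07 at Pre, 1.18, 1.12 and 1.35 at WL1 and 0.989, 0.965 and 0.941 at WL2. Its 3 WL1 values lay above the other 6. Counts are not divided by gene length, so a ratio near 1 does not show equal levels of the partner subunits. *Acaa2*, which cleaves the shortened chain, showed 186, 161 and 146 CPM at Pre, 149, 161 and 192 CPM at WL1 and 161, 164 and 142 CPM at WL2. The groups overlapped in every comparison. Its log2 fold change was 0.025 at WL1 (95% interval −0.27 to 0.32) and −0.076 at WL2 (−0.37 to 0.22), and both signs turned under some of the other settings.

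*Pdk4* had the largest called change of the 9 genes. It was measured at 74.6, 64.0 and 103 CPM at Pre, 201, 246 and 331 CPM at WL1 and 260, 149 and 212 CPM at WL2. All 6 weight-loss libraries lay above the 3 Pre libraries, and WL1 and WL2 overlapped. The mean rose from 80.4 ± 19.9 CPM at Pre to 259 ± 66.3 at WL1 (SD, n = 3), which is 3.22-fold (log2 fold change 1.69, SE 0.25, adjusted p = 0.00453, edgeR). At WL2 the mean was 207 ± 56.1 CPM, 2.57-fold above Pre (log2 fold change 1.36, SE 0.25, adjusted p = 0.00794). Between WL2 and WL1 the log2 fold change was −0.33 (95% interval −0.87 to 0.22, adjusted p = 0.509). Both calls against Pre held in every setting tried and in every fit that left out 1 library (1.46 to 1.90 and 1.17 to 1.58).

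**Figure D2:**
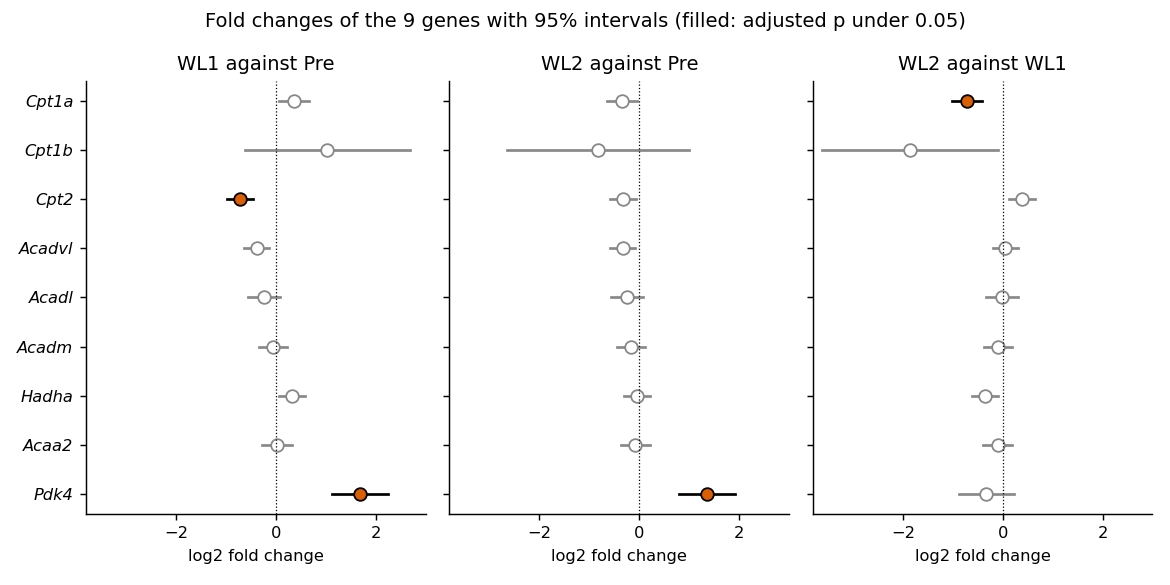
Log2 fold change of each of the 9 genes in WL1 against Pre, WL2 against Pre and WL2 against WL1 from the edgeR fit. Points are estimates, lines are 95% intervals and filled points have an adjusted p under 0.05. *Pdk4* is filled at 1.69 and 1.36 against Pre, *Cpt2* at −0.71 in WL1 against Pre and *Cpt1a* at −0.71 in WL2 against WL1.

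Set against all genes, the 9 genes did not move as a block in WL1 against Pre, where 5 estimates were above 0 and 4 below. In WL1 against Pre, 1 of 9 rose and 1 of 9 fell by edgeR, against 2.60% of the 18510 tested genes called higher and 4.69% called lower. Their median log2 fold change was 0.025, beside 0.021 over all genes. There 5 of the 9 had an unadjusted p under 0.05, and DESeq2 called 1 higher (*Pdk4*) and 2 lower (*Cpt2* and *Acadvl*). In WL2 against Pre, 1 of 9 rose and 0 fell by edgeR, against 3.35% called higher and 6.66% called lower. In that comparison 8 of the 9 estimates were below 0 with a median of −0.24 (0.0084 over all genes), and 4 of the 9, *Pdk4* among them, had an unadjusted p under 0.05. DESeq2 called 1 higher there, *Pdk4*, and 1 lower, *Acadvl*. In WL2 against WL1, 0 rose and 1 fell by edgeR, against 1.31% called higher and 2.37% called lower. The median was −0.10, beside −0.0014 over all genes. There 4 of the 9 had an unadjusted p under 0.05, and DESeq2 called 1 higher (*Cpt2*) and 2 lower (*Cpt1a* and *Hadha*). The shares over all genes are of edgeR calls, and none is given here for unadjusted p or DESeq2, so those counts cannot be read against them. In the 10 other settings, DESeq2 among them, 844 to 2344 of all genes were called in WL1 against Pre. The ranges were 1314 to 2717 in WL2 against Pre and 330 to 1935 in WL2 against WL1. The comparisons share libraries, so their counts are not independent of each other.

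The change of *Pdk4* was also measured within each library, where a scaling factor between libraries cancels apart from the prior count. *Pdk4* minus the mean of the other 8 genes on the log2 CPM scale was −0.42, −0.24 and 0.19 at Pre, 1.13, 1.58 and 1.83 at WL1 and 1.71, 0.97 and 1.63 at WL2. The weight-loss libraries all stood above the Pre libraries. The mean gives *Cpt1b*, with 1 to 26 reads and log2 CPM from −1.88 to 0.70, the same weight as each other gene. The measure without *Cpt1b* is not given here. The phases differed by an exact permutation test over 1680 assignments (p = 0.0250, adjusted over 3 ratios 0.0375, smallest possible p 0.00357). The same libraries gave the edgeR calls of *Pdk4*, so this p is not separate support for them. *Pdk4* is 1 of 4 genes for pyruvate dehydrogenase kinases. At Pre, *Pdk2* (22.3 FPKM) and *Pdk4* (21.5 FPKM) had similar means, above *Pdk3* (5.31 FPKM) and *Pdk1* (3.42 FPKM). The share of *Pdk4* in their summed FPKM was 38.8%, 32.6% and 51.1% at Pre, 60.4%, 65.1% and 75.1% at WL1 and 58.6%, 43.2% and 52.2% at WL2. WL1 lay above both other phases, while WL2 and Pre overlapped. The means were 40.8 ± 9.42%, 66.9 ± 7.51% and 51.3 ± 7.71% (SD, n = 3), and the phases differed by the same exact permutation test (p = 0.0214, adjusted 0.0375). That p rose to between 0.05 and 0.0893 without Pre replicate 1, WL1 replicate 2, WL1 replicate 3 or WL2 replicate 3. *Pdk2* stood at 78.8, 86.7 and 60.0 CPM at Pre, 86.9, 86.3 and 70.1 at WL1 and 136, 141 and 144 at WL2. It rose at WL2 against Pre (log2 fold change 0.90, SE 0.14, adjusted p = 0.00354, edgeR) and against WL1 (0.79, adjusted p = 0.0213, lost without WL1 replicate 2, WL1 replicate 3, WL2 replicate 2 or WL2 replicate 3).

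**Figure D3:**
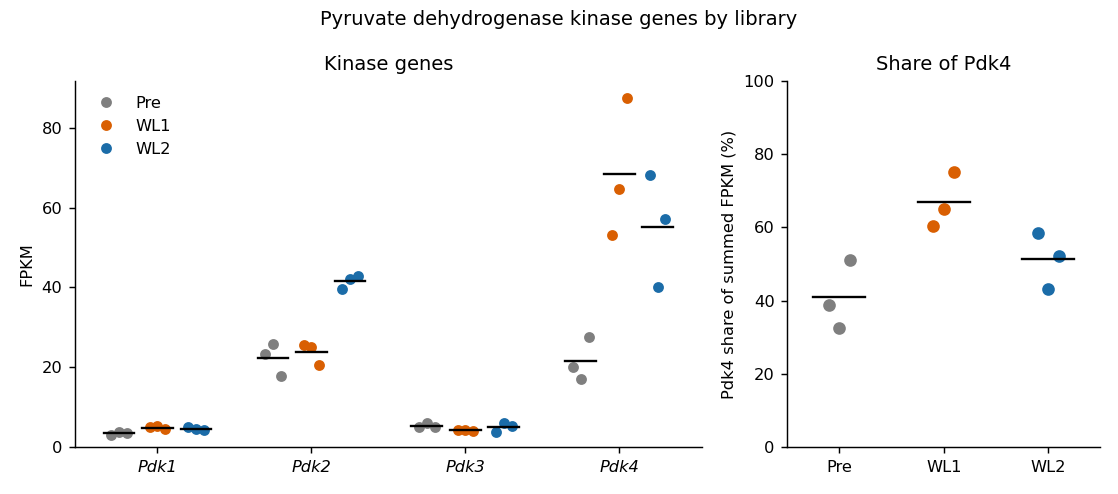
Left, FPKM of the 4 pyruvate dehydrogenase kinase genes in each library, with bars at the means of 3 libraries per phase. Right, *Pdk4* as a percentage of their summed FPKM, with means of 40.8% at Pre, 66.9% at WL1 and 51.3% at WL2. *Pdk4* is higher at WL1 and WL2 than at Pre, and *Pdk2* is higher at WL2 than in both other phases.

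The other genes of the pathway were taken from lists, whose counts stand beside the 2.60% of all tested genes called higher and 4.69% called lower in WL1 against Pre, the 3.35% and 6.66% in WL2 against Pre and the 1.31% and 2.37% in WL2 against WL1. These shares are of edgeR calls. For counts by unadjusted p or DESeq2, here and in the marker lists, no share over all genes is given. Of 18 further genes of mitochondrial beta-oxidation, 0 rose and 4 fell in WL1 against Pre by edgeR. The median log2 fold change of the 18 was −0.17. By unadjusted p under 0.05, 0 were higher and 6 lower, and DESeq2 called 0 higher and 6 lower. The 4 were the hydratase *Echs1* (−0.64, SE 0.12, adjusted p = 0.0130), the dehydrogenases *Acad9* (−0.57, adjusted p = 0.0199) and *Acads* (−0.56, adjusted p = 0.0207), and *Decr1*, which handles unsaturated chains (−0.55, adjusted p = 0.0122, all by edgeR). *Echs1* was at 225, 194 and 178 CPM at Pre and 124, 141 and 119 CPM at WL1, and its groups did not overlap. In WL2 against Pre 0 of the 18 rose and 3 fell by edgeR with a median of 0.0099, beside 3 higher and 5 lower at unadjusted p under 0.05 and 1 and 4 called by DESeq2. They were *Acsl1*, which activates fatty acids to acyl-CoA (−0.62, adjusted p = 0.0191), *Acad9* (−0.49) and *Decr1* (−0.45). From WL1 to WL2, *Echs1* (0.61, adjusted p = 0.0270) and the hydroxyacyl-CoA dehydrogenase *Hadh* (0.59, adjusted p = 0.0305) rose. *Etfa*, the electron acceptor of the dehydrogenases, was the most abundant of the list (109 to 153 FPKM). Of these calls only that of *Decr1* in WL1 against Pre held in every fit that left out 1 library. The others were lost in some of the fits without WL1 replicate 1, 2 or 3, WL2 replicate 1, 2 or 3, or Pre replicate 1 or 3.

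In peroxisomes, where the longest chains are shortened, 0 of 16 genes rose and 3 fell in WL1 against Pre by edgeR (median −0.24), beside 1 higher and 5 lower at unadjusted p under 0.05 and 0 and 5 called by DESeq2. *Pex11a*, which acts in peroxisome division, fell by 0.77 on the log2 scale (adjusted p = 0.0231, edgeR), and the thiolase *Acaa1a* had −0.50 (adjusted p = 0.0364). The call for *Pex11a* was lost without Pre replicate 1, WL1 replicate 1 or WL1 replicate 3, and that for *Acaa1a* in 7 of the 9 fits that left out 1 library, all but those without Pre replicate 3 and WL2 replicate 1. In WL2 against Pre the transporter *Abcd3* fell (−0.49, adjusted p = 0.00905) and *Phyh*, which starts the alpha-oxidation of branched chains, rose (0.58, adjusted p = 0.0169), with a median of −0.24 over the list. *Phyh* was at 126, 116 and 112 CPM at Pre, 108, 115 and 86.8 at WL1 and 160, 185 and 183 at WL2, so WL2 stood above both other phases. It also rose from WL1 to WL2 (0.77, adjusted p = 0.0139). Without WL2 replicate 2 or WL2 replicate 3 both calls of *Phyh* were lost, and the one against Pre also without Pre replicate 3. *Ech1* was the most abundant gene of the list (139 to 234 FPKM).

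Among 16 genes that control the pathway, 0 rose and 3 fell in WL1 against Pre by edgeR (median −0.30), beside 2 higher and 5 lower at unadjusted p under 0.05 and 0 and 4 called by DESeq2. The acetyl-CoA carboxylase *Acaca*, which makes malonyl-CoA for fatty acid synthesis, was at 133, 123 and 133 CPM at Pre, 80.6, 74.9 and 63.5 CPM at WL1 and 93.0, 106 and 112 CPM at WL2. It fell by 0.83 on the log2 scale at WL1 (SE 0.12, adjusted p = 0.00343, edgeR). *Prkaa2*, a catalytic subunit of AMP-activated kinase, had −0.94 (adjusted p = 0.0169), which was lost without any 1 of the 3 WL1 libraries. The receptor partner *Rxra*, the most abundant gene of the list (26.3 to 45.6 FPKM), had −0.52 (adjusted p = 0.0257), lost without Pre replicate 1 or 2 or any 1 WL1 library. In WL2 against Pre 3 rose and 2 fell (median 0.054). *Acacb*, the carboxylase at the mitochondrial surface that supplies malonyl-CoA to CPT1, rose from 71.1, 65.7 and 60.0 CPM to 127, 109 and 108 CPM (log2 fold change 0.81, SE 0.15, adjusted p = 0.00737). The deacetylase *Sirt1* (0.46, adjusted p = 0.0439) and the kinase subunit *Prkaa1* (0.45, adjusted p = 0.0212) also rose. *Sirt1* lost its call in 8 of the 9 fits that left out 1 library, all but that without Pre replicate 2, and *Prkaa1* without Pre replicate 1 or WL2 replicate 2. *Rxra* fell (−0.61, adjusted p = 0.00905), as did the nuclear receptor *Esrra* (−0.55, adjusted p = 0.0274, lost without Pre replicate 1 or 2 or any 1 WL2 library). From WL1 to WL2 *Acaca* rose (0.50, adjusted p = 0.0456), a call lost in 7 of the 9 fits, all but those without Pre replicate 2 and WL2 replicate 1. At WL2 the carboxylase gene *Acacb* was thus above Pre, and the *Cpt1a* mean below it without passing the test.

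Of 12 other genes known as PPAR targets, 3 rose and 1 fell in WL1 against Pre (median 0.42), and 4 rose and 0 fell in WL2 against Pre (median 0.45), by edgeR. In WL2 against Pre, 5 were higher and 0 lower at unadjusted p under 0.05, and DESeq2 called 4 and 0. The pantetheinase *Vnn1* rose from 6.01, 6.88 and 4.94 CPM to 29.4, 28.5 and 20.1 CPM at WL1 (2.13, SE 0.22, adjusted p = 0.000730) and to 31.3, 20.4 and 21.1 CPM at WL2 (2.03, adjusted p = 0.000416). All 6 weight-loss libraries exceeded the 3 Pre libraries. The thioesterase *Acot1* also rose at WL1 (1.45, adjusted p = 0.0186), from about 1 CPM and with a near-identical paralog. It lost the call without Pre replicate 1 or any 1 WL1 library. The uncoupling protein gene *Ucp3* fell by 0.91 at WL1 on the log2 scale (adjusted p = 0.0113) and rose from WL1 to WL2 (1.02, adjusted p = 0.0133, lost without WL2 replicate 2 or WL2 replicate 3). *Txnip*, the most abundant gene of the list (356 to 779 FPKM), rose at WL2 against Pre (0.98, adjusted p = 0.000841) and against WL1 (0.55, adjusted p = 0.0364). The thioesterase *Acot2* also rose at WL2 (0.74, adjusted p = 0.0367), a call kept only without Pre replicate 1. The call of *Txnip* against WL1 was kept only without Pre replicate 1, Pre replicate 2 or WL2 replicate 1. The direction of *Ucp3* at WL1 was opposite to that of *Pdk4* and *Vnn1*.

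*Pdk4* acts on the pyruvate dehydrogenase complex. Of 13 genes of pyruvate dehydrogenase, its kinases and phosphatases and the mitochondrial pyruvate carrier, 2 rose and 5 fell in WL1 against Pre (median −0.33). The carrier subunit *Mpc2* was at 201, 163 and 152 CPM at Pre, 78.2, 108 and 87.9 CPM at WL1 and 98.2, 88.6 and 83.7 CPM at WL2. It fell by 0.91 at WL1 (adjusted p = 0.00679, edgeR) and by 0.93 at WL2 (adjusted p = 0.00345) on the log2 scale. *Pdhb* of the complex was at 163, 152 and 167 CPM at Pre and 97.2, 114 and 101 CPM at WL1 (−0.63, adjusted p = 0.00551). The carrier subunit *Mpc1* (−0.63, adjusted p = 0.0427), *Dlat* (−0.51, adjusted p = 0.0185) and *Pdha1* (−0.38, adjusted p = 0.0492) also fell. Of the fits that left out 1 library, *Mpc1* kept its call only without Pre replicate 3 and *Pdha1* only without WL2 replicate 1. *Dlat* lost its call without Pre replicate 1, WL1 replicate 1 or WL1 replicate 3. The kinase gene *Pdk1* (0.53, adjusted p = 0.0303) and the phosphatase gene *Pdp1* (0.48, adjusted p = 0.0363) rose. *Pdk1* lost its call without Pre replicate 1 or 3, WL1 replicate 1 or 2, or WL2 replicate 2, and *Pdp1* kept it only without Pre replicate 3 or WL2 replicate 1. In WL2 against Pre 1 rose, *Pdk2*, and 3 fell, *Mpc2*, *Dlat* (−0.51, adjusted p = 0.0132) and *Pdhb* (−0.40, adjusted p = 0.0292), with a median of −0.19. *Dlat* lost that call without WL2 replicate 2 or WL2 replicate 3 and *Pdhb* in 5 fits, all but those without Pre replicate 2 or any 1 WL1 library. *Dld*, shared with other dehydrogenase complexes, was the most abundant gene of this list (38.1 to 54.0 FPKM).

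Of 8 genes of ketone body metabolism, 1 rose and 2 fell in both comparisons against Pre. The 2 that fell encode enzymes that activate acetoacetate. *Oxct1*, which serves its oxidation and was the most abundant of the list (64.4 to 122 FPKM), went from 465, 392 and 482 CPM to 287, 295 and 272 CPM at WL1 and 259, 266 and 277 CPM at WL2. Its log2 fold change was −0.65 (adjusted p = 0.00764, edgeR) and −0.74 (adjusted p = 0.00220). *Aacs*, which serves lipid synthesis, had −1.16 at WL1 (adjusted p = 0.000726) and −0.68 at WL2 (adjusted p = 0.00567). The medians of the list were −0.29 and −0.025. These calls of *Oxct1* and *Aacs* held in every fit that left out 1 library.

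**Figure D4:**
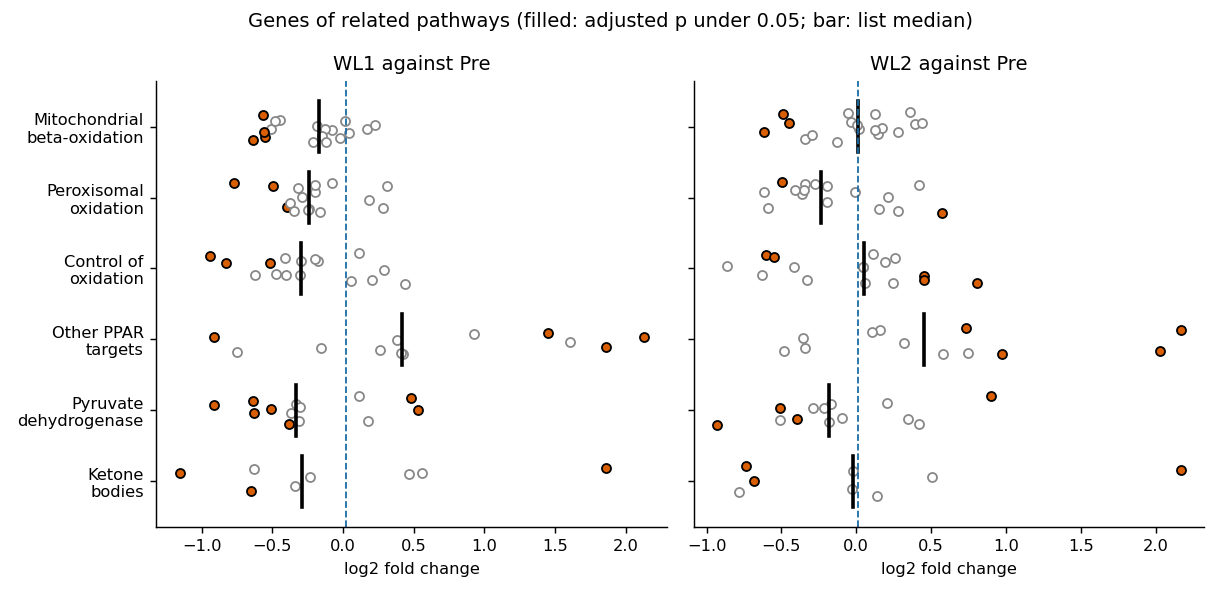
Log2 fold change of each gene of 6 related lists in WL1 against Pre and WL2 against Pre. Points are genes, filled where the adjusted p is under 0.05, black bars are list medians and the dashed line is the median of all 18510 genes tested. The PPAR target list has medians of 0.42 and 0.45, and in WL1 against Pre the other 5 lists have medians between −0.33 and −0.17.

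Fat tissue holds several cell types, and in bulk RNA fewer cells of a type and less RNA per cell cannot be told apart. All 12 adipocyte markers were lower at WL1 than at Pre and 5 were called (median −0.49), namely *Retn* (−1.86, adjusted p = 0.00197, edgeR), *Car3* (−0.93), *Cidec* (−0.84), *Lep* (−0.83) and *Plin1* (−0.52). *Retn*, *Cidec* and *Lep* held in every fit that left out 1 library, *Car3* lost its call without Pre replicate 1 or any 1 WL1 library, and *Plin1* kept it only without WL2 replicate 1. DESeq2 called 7 of the 12 lower at WL1, and no share over all genes by DESeq2 is given here. At WL2 against Pre, *Lep* (−2.03, adjusted p = 2.03e-05, edgeR) and *Cidec* (−0.67, adjusted p = 0.00456) were lower and *Cfd* (1.61, adjusted p = 0.0299) was higher, the last call lost without Pre replicate 2 or 3 or WL2 replicate 2 or 3. The summed level of the 12 markers ranged from 42306 to 56781 CPM at Pre, 27816 to 36945 at WL1 and 47456 to 48725 at WL2. *Cpt2*, *Acaca* and *Echs1* were lowest in the same phase, but not all genes called lower were. *Oxct1* had a mean of 285 CPM at WL1 and 268 at WL2, *Acsl1* 892 and 825, and *Rxra* 203 and 191. Their WL1 and WL2 libraries overlapped. The 10 macrophage markers were all higher at WL1 than at Pre with 1 called by edgeR, *Msr1* (1.56, adjusted p = 0.0403), which kept the call only without WL2 replicate 1 or 2. DESeq2 called 5 of the 10 higher. Their sum ranged from 5076 to 6535 CPM at Pre, 7837 to 14025 at WL1 and 4502 to 8183 at WL2. *Msr1* was highest at WL1 in replicate 3 (59.9 CPM) and at WL2 in replicate 1 (36.1 CPM), the libraries in which *Pdk4* was also highest in these phases. At Pre *Msr1* was nearly equal in replicate 2 (17.5 CPM) and replicate 3 (17.3 CPM) and lower in replicate 1 (9.37 CPM). *Pdk4* at Pre was lowest in replicate 2 (64.0 CPM) and highest in replicate 3 (103 CPM). At WL2 the median of the macrophage sum (4602 CPM) lay below every Pre library and its highest value above every Pre library. The adipocyte sum at WL2 lay within the range of Pre. The part of cell composition in the results for *Cpt1a*, *Cpt2*, *Hadha*, *Pdk4* and the genes of the lists was not tested. Reads of mitochondrially encoded genes, a share that was 3.15% to 3.57% at Pre, 1.86% to 2.03% at WL1 and 2.28% to 2.88% at WL2, moved with the phase as well, and their part was not tested either.

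Markers of tissues with high fatty acid oxidation were low in sum, and those of hepatocytes differed widely between libraries. The 8 brown adipocyte markers summed to 15.3 to 20.7 CPM at Pre, 5.48 to 10.0 at WL1 and 4.75 to 7.17 at WL2, with *Ucp1* at 0 to 5 reads and *Zic1* at 0 in every library. Of the 6 of these markers that were tested, 1 was called lower at WL1 against Pre by edgeR, against 4.69% of all genes. At WL2 against Pre 3 were called lower, against 6.66%, and all 6 were lower (median −1.81). Each of the 3 calls at WL2 was lost in some fits that left out 1 library. *Cox8b* fell at WL1 (−2.03, adjusted p = 0.0156, edgeR), a call lost without Pre replicate 1 or WL1 replicate 2. It also fell at WL2 (−1.91, adjusted p = 0.0138), lost without WL2 replicate 2 or WL2 replicate 3. The 9 skeletal muscle markers summed to 31.6 to 47.5 CPM at Pre, 8.54 to 16.2 at WL1 and 10.0 to 28.0 at WL2, mostly from *Acta1*, which fell at WL1 (−2.41, adjusted p = 0.0131, lost without WL1 replicate 1 or WL1 replicate 2). *Ckm* had 0 to 3 reads and *Myh4* 0 in every library. The 5 heart muscle markers summed to at most 2.81 CPM. The 7 hepatocyte markers summed to 10.8 to 90.5 CPM at Pre, 2.89 to 77.2 at WL1 and 4.16 to 7.99 at WL2, with *Alb* at 35 to 1362 reads. *Serpina1a*, 1 of them, was called lower at WL2 (−2.95, adjusted p = 0.00816). The 5 mesothelium markers summed to between 33.5 and 603 CPM with 0 called in any comparison by edgeR or DESeq2. At unadjusted p under 0.05, 0 were called against Pre and 5 were higher in WL2 against WL1, and the part of these cells was not tested.

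The genes whose pattern over the 9 libraries was most like that of the 3 called genes were taken from 13055 protein-coding genes with a mean of at least 1 CPM, by the root mean square difference of centred log2 CPM. For *Cpt1a* they were *Dock10* (0.0873), *Lyn* (0.0881) and *Plxna1* (0.0888). *Lyn*, a kinase of immune cell receptors, was at 79.1, 85.4 and 94.3 CPM at Pre, 104, 108 and 120 at WL1 and 83.9, 61.3 and 66.3 at WL2. For *Cpt2* they were the malate dehydrogenase gene *Mdh1* (0.0859), *L3hypdh* (0.0958) and *Apip* (0.0983). *Mdh1* was at 514, 455 and 453 CPM at Pre, 299, 325 and 314 at WL1 and 401, 380 and 368 at WL2. The genes nearest to *Pdk4* were farther from it, namely *Ttll3* (0.260), *Gdpd1* (0.262) and *Ifi207* (0.265). All points of these likeness values share their libraries.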

How the data were processed

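RNA sequencing of epididymal fat was analysed in 9 libraries (3 each of Pre, WL1 and WL2), prepared by Novogene per the labels. The authors deposited unnormalized whole counts and FPKM of each gene, the latter of which they scaled by gene length and a library total. The submitters' processing notes name HISAT2, HISAT, TopHat2, CASAVA, GRCm38 and mm10; for the counting program, strand setting and annotation, the sources used here give nothing. Of the 9 genes, 1 had the coordinates of GENCODE M21 on GRCm38 and all 9 the same span, so the coordinates of the table are not printed. The columns that matched no sample numbered 0.

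Groups were taken from the sample titles. Genes that reached 0.5 CPM in 1 library or more, after the study's methods, entered a quasi-likelihood test of their counts (edgeR 4.0.16, glmQLFit then glmQLFTest; R 4.3.3) in a single model of the 9 libraries with TMM scaling and no covariates, with Benjamini-Hochberg adjustment over 18510 genes at 0.05. CPM in the text are TMM-scaled, log2 CPM used a prior count of 4, and SE and 95% intervals come from the same fit. Within-library ratios were compared by exact permutation tests, two-sided by construction, adjusted over 3. Totals of 16434450 to 22729072 counts leave genes near 0.5 CPM with wide counting error. Within a phase, chi-square per degree of freedom between libraries was 8.84 to 46.8, more than counting error gives.

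The 9 genes and all lists were chosen with earlier results of these data known. Named are the 9 genes; of each list, the called genes with the 2 largest rises and 2 largest falls in a comparison and the most abundant gene by FPKM; of marker lists, sums, counts and defining markers; and the 3 genes most like each called gene. Further called genes of these lists (*Acads*, *Decr1*, *Prkaa1*, *Acot2*, *Pdha1*, *Dlat* and *Pdhb*) and *Hadhb* were named after their values were seen. Some genes that the rule names are left out and not reported here. Other settings were DESeq2 1.42.0, a looser and a stricter filter (3 libraries), other scaling, limma 3.58.1 on log2(FPKM + 1) and log2(FPKM + 0.1), the replicate number as a block, the compared phases alone and leaving out each library. The fits were tested on simulated data.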

Additional observations from a re-analysis of the deposited data

How the results depend on the processing

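Both *Pdk4* calls against Pre and the *Cpt2* call at WL1 held in all 10 other settings and all 9 fits that left out 1 library. Of 513 fold changes of the 9 genes under other settings, 473 kept direction and side of the threshold, 4 lost the call, 13 gained one and 23 changed sign, and the cause was not tested. DESeq2 called 3 of the 9 genes in WL1 against Pre, 2 in WL2 against Pre and 3 in WL2 against WL1, and the compared phases alone gave 2 there. In WL1 against Pre the filter on 3 libraries, upper quartile factors and limma on log2(FPKM + 1) gave 3 calls each, adding *Acadvl*, and no scaling factors 3, adding *Hadha*. Over the fits that left out 1 library the 9 genes gave 2 to 3 calls in WL1 against Pre, 1 to 3 in WL2 against Pre and 0 to 1 in WL2 against WL1. The pathway lists gave 9 to 23, 10 to 20 and 0 to 13, and in WL2 against WL1 they gave 14 calls without a filter, 17 with DESeq2 and 11 with the phases alone. Over all genes the calls ranged from 844 to 2344, 1314 to 2717 and 330 to 1935 in other settings, and from 512 to 1500, 743 to 1688 and 37 to 1351 without 1 library. The sign changes were of values near 0. *Acadl* in WL2 against WL1 gave 0.017 with the stricter filter, 0.0084 with DESeq2 and with RLE factors, 0.053 with upper quartile factors, 0.044 without factors and 0.011 with limma at either pseudocount. *Acaa2* in WL1 against Pre gave −0.0063 with the stricter filter and −0.012 with upper quartile factors. Without factors, which moved the median of all genes by 0.098, 0.15 and 0.051 in the 3 comparisons, *Acadm* in WL1 against Pre gave 0.037, and *Hadha* and *Acaa2* in WL2 against Pre 0.11 and 0.075. Without 1 library the ranges were −0.15 to 0.054 for *Acadm* in WL1 against Pre, −0.095 to 0.12 for *Acaa2* in WL1 against Pre, −0.16 to 0.023 in WL2 against Pre and −0.18 to 0.028 in WL2 against WL1, −0.13 to 0.034 for *Hadha* in WL2 against Pre and −0.033 to 0.015 for *Acadl* in WL2 against WL1. The rise of the *Pdk4* share from Pre to WL1, 26.0 percentage points, ranged from 21.9 to 31.1. The within-library difference of *Pdk4* from the other genes rose by 1.67 from Pre to WL1, with its highest mean at WL1 (1.51 against 1.44 at WL2) but at WL2 without WL1 replicate 3 (1.35 against 1.44) or WL2 replicate 2 (1.51 against 1.67). Same-numbered libraries did not deviate together (correlations −0.28 to 0.11), so the replicate number was not read as a pairing. With it as a block the 1.67 had an exact permutation p of 0.0833, the *Pdk4* share p = 0.0278, and the 9 genes gave the same calls.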
